A study of Mus musculus with 6 samples.

Results

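The nuclear genes of respiratory complex I were followed in ribosome footprints of mouse round spermatids labelled Eif5a SKO or wild type. The members were all rows of the footprint table whose symbol is Nduf followed by a, ab, b, c, s, v or af and a number. This gave 45 of 22770 rows, of which 37 are named as structural subunits and 8 are assembly factors named Ndufaf. The test took in genes that averaged 1 FPKM or more across libraries, which kept 44 of the 45 and left out the assembly factor Ndufaf4.

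The samples were Eif5a SKO round spermatids in 3 libraries and wild-type round spermatids in 3 libraries, all from testis. Round spermatids are the haploid germ cells that follow meiosis, and Eif5a encodes the hypusinated translation factor that helps ribosomes through slow peptide bonds such as proline runs. The labels do not spell out SKO, the table's columns call the same genotype cKO, and neither the Cre driver, the alleles, the strain nor the age of the mice is given in the labels. The series' design text, written for a chromatin assay, speaks of sorted cells from 3 mice in each group, and no label ties a footprint library to a mouse. Ribosome footprints are RNA fragments shielded by ribosomes, so their density reflects both the amount of an mRNA and the ribosomes on it, and RNA levels were not analysed here. The unit is FPKM, a density scaled by the authors for transcript length and for the mapped fragments of each library.

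Complex I passes electrons from NADH to ubiquinone and pumps protons across the inner mitochondrial membrane. Its matrix arm holds the flavin and the iron-sulfur clusters, its membrane arm holds the proton channels, and accessory subunits surround this core. Assembly factors bind intermediates, modify subunits and leave before the enzyme is complete. Spermatids change their mitochondria as they mature, and both respiration and glycolysis serve male germ cells. The core subunits encoded in mitochondrial DNA were not analysed here.

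The targeted gene differed between the groups as its label says. Eif5a averaged 2.25 ± 0.642 FPKM in SKO libraries and 48.3 ± 13.9 FPKM in wild-type libraries (SD, n = 3 each), a log2 fold change of -3.90 on the log2(FPKM + 1) scale (limma, adjusted p = 0.00641). Summed FPKM per library lay between 687795 and 805560 in SKO and between 495616 and 774031 in wild type. Absolute depth is unknown, and relative depth, read from the steps between low values, was 0.503 in SKO replicate 2 to 1 in SKO replicate 1. Protein-coding rows held 18.3%, 33.1% and 29.8% of the FPKM in SKO replicates 1, 2 and 3, against 26.1%, 22.5% and 28.5% in the wild-type replicates, so SKO replicate 1 stood below all others. The 14 round spermatid markers summed to 988 to 2028 FPKM in SKO and 736 to 1303 FPKM in wild type, which overlap. They were uneven: the acrosomal Acrv1 averaged 628 ± 236 FPKM in SKO and 403 ± 128 FPKM in wild type, and the transcription factor Crem 221 ± 88.5 FPKM in SKO and 226 ± 83.9 FPKM in wild type (SD, n = 3 each). Tssk6 averaged 0.929 FPKM over all libraries. Of the 13 tested markers 9 had a positive and 4 a negative log2 fold change as deposited, with none past the test. Once libraries were rescaled to equal sums over protein-coding rows, 4 of 13 passed the test higher in SKO, against 2.02% of all tested rows. There the groups did not overlap for 6 markers higher and 2 lower in SKO, against 11.3% and 11.8% of all tested rows. Spermatocyte markers, led by Ccna1 and Sycp3, summed to 133 to 208 FPKM in SKO and 98.4 to 199 FPKM in wild type, also overlapping. Markers of other testis cells were present as well. Of 10 listed Leydig cell genes, 7 were in the table and summed to 61.2 to 118 FPKM in SKO against 13.6 to 18.6 FPKM in wild type. Of 12 listed Sertoli cell genes, 6 were in the table and summed to 50.9 to 78.0 FPKM in SKO against 10.1 to 22.0 FPKM in wild type. The densest Leydig markers were the peptide hormone Insl3, at 36.8 ± 17.4 FPKM in SKO and 5.43 ± 4.13 FPKM in wild type, and Cyp17a1, at 18.0 ± 7.16 FPKM in SKO and 2.58 ± 1.71 FPKM in wild type (SD, n = 3 each). The densest Sertoli markers were Ctsl, at 28.0 ± 7.71 FPKM in SKO and 7.44 ± 2.99 FPKM in wild type, and Clu, at 27.7 ± 3.69 FPKM in SKO and 5.57 ± 2.14 FPKM in wild type (SD, n = 3 each). Tsx and Defb36, also Sertoli markers, were listed at 0 in SKO replicate 2, and Tsx in wild-type replicate 1 as well. Ctsl and Clu held most of the mean Sertoli sum in both groups. Of the 5 tested Sertoli genes, 4 had a positive and 1 a negative log2 fold change. With libraries rescaled to equal sums over protein-coding rows, 3 were positive and 2 negative. All 7 tested Leydig genes had positive log2 fold changes. A list of peritubular and blood genes had 6 of 10 negative log2 fold changes. Of that list Dcn, a proteoglycan of connective tissue, rose to 8.96 ± 1.33 FPKM in SKO, against 1.11 ± 0.289 FPKM in wild type (SD, n = 3 each; limma, adjusted p = 0.0470). Its 4 globin genes had lower values in every SKO library, as for Hbb-bs with 9.38 ± 5.81 FPKM in SKO and 27.5 ± 9.53 FPKM in wild type (SD, n = 3 each; limma, adjusted p = 0.294). The Leydig and Sertoli sums did not overlap between the groups, and their part in any difference described here was not tested. In bulk samples, fewer cells of a type and less RNA per cell cannot be told apart.

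Structural subunits were mostly dense. Their mean levels had a median of 37.0 FPKM and spanned 1.96 FPKM for Ndufb11 to 593 FPKM for Ndufc1, a 303-fold range. By the median of their ranks in the 6 libraries, 32 of the 37 stood above the 75th percentile of the 11159 tested protein-coding rows. The 9 matrix-arm accessory subunits had a median level of 119 FPKM, the 19 membrane-arm accessory subunits one of 19.6 FPKM, and the 7 core subunits one of 29.6 FPKM. The Ndufaf factors had a median level of 6.58 FPKM, and 3 of 8 stood above the 75th percentile. The transcript length behind each FPKM is not stated, so the order of genes by level depends on the authors' choice of transcript. Within the SKO libraries the levels of the 37 subunits ranked alike (Spearman's rho 0.973 to 0.980 between libraries), as they did within wild type (0.961 to 0.972), and rho between the groups was 0.926 to 0.950. These correlations are across genes, which are not independent replicates, and each library shares its gene lengths with the others.

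**Figure D1:**
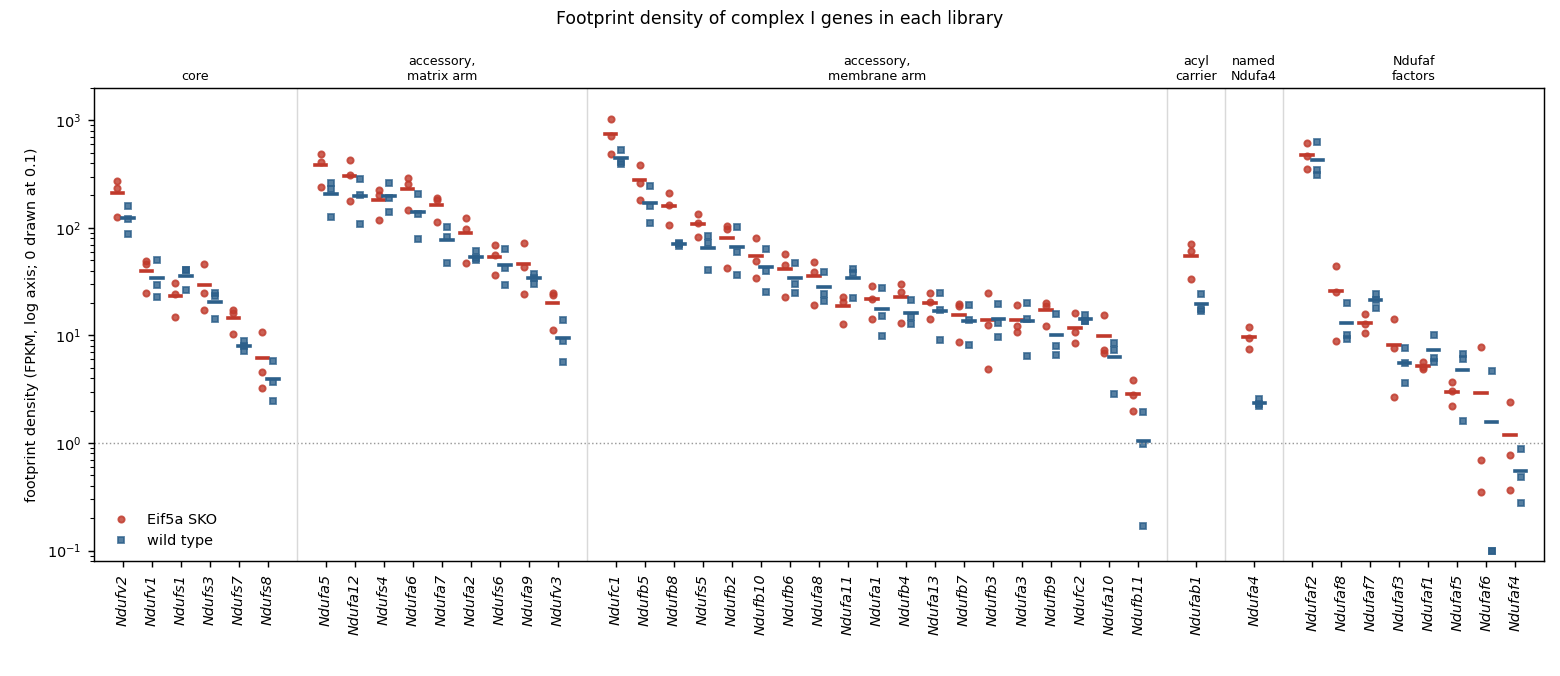
Footprint density in FPKM (vertical log axis, values of 0 drawn at 0.1) of 44 of the 45 complex I genes in each library, Eif5a SKO as circles left of wild type as squares, with horizontal bars at the group means. Ndufc1 at 593 FPKM and Ndufaf2 at 454 FPKM have the highest means over the 6 libraries, and Ndufaf4 at 0.868 FPKM has the lowest.

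The main comparison asked which complex I genes differ in footprint density between SKO and wild-type spermatids. None of the 44 tested members passed it in either direction (limma on log2(FPKM + 1), adjusted p under 0.05 over 15578 rows), where 0.128% of all tested rows did, 0.109% higher in SKO and 0.0193% lower. The count was also 0 with TMM-type scaling, which calls 0.340% of all rows, or 0.802% with factors from the tested rows. At an unadjusted p under 0.05, 5 members were higher in SKO and 0 lower, against 8.15% and 2.83% of all tested rows. The 3 SKO values lay above the 3 wild-type values for 6 members, against 10.9% of all tested rows, and below them for 1 member, against 4.78%. These shares of members are 13.6% and 2.27%, close to the background. The median standard error of a member's log2 fold change was 0.45, and the differences described below were not called as deposited at that precision.

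The lists are described by their medians, without a test. The median log2 fold change was 0.41 over the 37 structural subunits and 0.20 over the 7 tested Ndufaf factors, against 0.13 over all tested rows. Of the subunits, 30 lay above the median of all tested rows, and of the Ndufaf factors 4 of 7 did. Leaving out 1 library moved the subunit median between 0.18, without SKO replicate 2, and 0.72, without SKO replicate 1. It was 0.27 without wild-type replicate 1 and 0.66 without wild-type replicate 3. The Ndufaf median was -0.24 without SKO replicate 2. Matrix-arm accessory subunits had a median of 0.64 with 8 of 9 above the median of all rows, membrane-arm accessory subunits 0.35 with 15 of 19, and core subunits 0.41 with 5 of 7.

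A share within each library is unchanged by a factor applied to that library, but it depends on the sum it is taken of. Dividing by the protein-coding sum is the same step as the rescaling to equal protein-coding sums used below. Summed as deposited, the structural subunits had 2269, 4736 and 3766 FPKM in SKO against 1692, 2324 and 3094 FPKM in wild type, which overlap. Structural subunits took 1.62%, 1.78% and 1.83% of the summed protein-coding FPKM in the SKO libraries, against 1.31%, 1.41% and 1.40% in the wild-type libraries. All SKO values were above all wild-type values, with means of 1.74 ± 0.112% in SKO and 1.37 ± 0.0554% in wild type (SD, n = 3 each), a ratio of 1.27. Without Ndufc1, the densest subunit, the shares were 1.38 ± 0.110% in SKO and 1.11 ± 0.0888% in wild type. The Ndufaf factors took 0.265 ± 0.0104% in SKO and 0.277 ± 0.0323% in wild type, with overlapping values. Complexes II to V took 2.87 ± 0.309% in SKO and 2.70 ± 0.123% in wild type, also overlapping. Subunit FPKM per FPKM of complexes II to V was 0.643, 0.578 and 0.605 in SKO against 0.509, 0.499 and 0.517 in wild type. On the log2(FPKM + 1) scale, the subunit median minus the Ndufaf median was 2.01, 1.71 and 2.36 in SKO against 1.73, 1.86 and 1.85 in wild type, which overlap. These scores over chosen members were given no test.

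**Figure D2:**
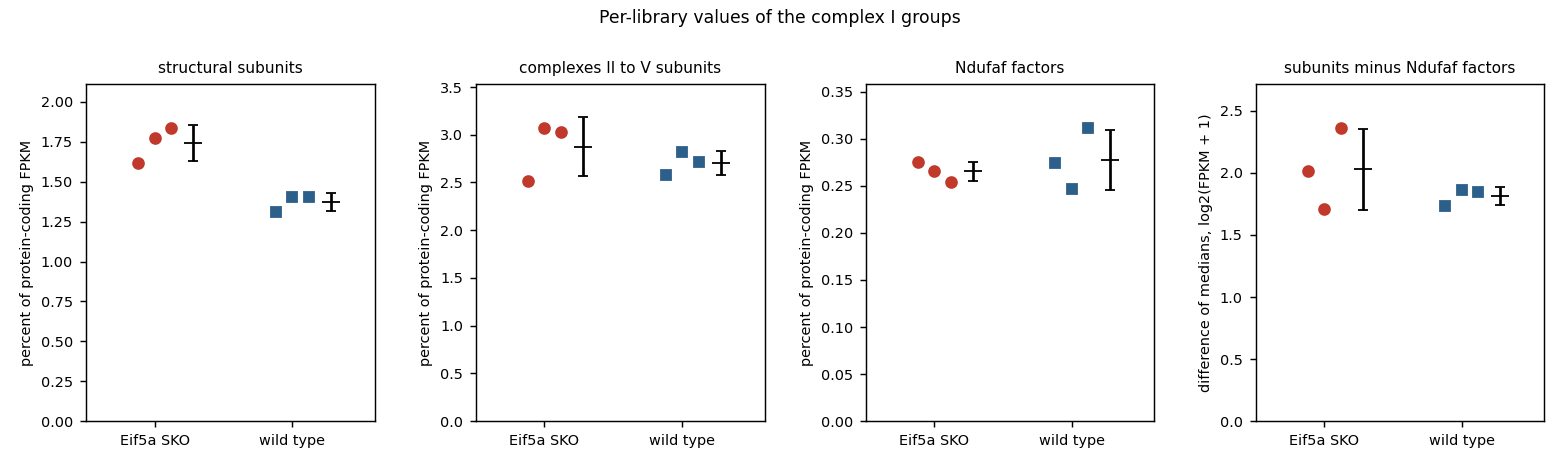
Values of each library for the gene groups, Eif5a SKO as circles left of wild type as squares, with the mean and SD of 3 libraries. The first 3 panels give percent of summed protein-coding FPKM, and the last gives the difference of median log2(FPKM + 1) between subunits and Ndufaf factors. Structural subunits lie at 1.62% to 1.83% in SKO and 1.31% to 1.41% in wild type, and the other 3 panels overlap.

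Much of the spread between libraries of a group was shared by the members. Rescaling each library to equal sums over protein-coding rows lowered the members' median standard error to 0.21, and then 4 of 44 members (9.09%) passed the test, against 3.32% of all tested rows. Of the 42 tested subunits of complexes II to V, 2 passed it higher in SKO and 2 lower, so such calls were not particular to complex I. Under that scaling Ndufab1 and Ndufa7 were higher in SKO, where 2.02% of all rows were, and Ndufs1 and Ndufaf7 were lower, where 1.30% of all rows were. With quantile normalization 3 members passed, against 2.88% of all tested rows. Under equal protein-coding sums the groups did not overlap for 13 members (29.5%) higher in SKO and 6 (13.6%) lower, against 11.3% and 11.8% of all tested rows. For subunits of complexes II to V these shares were 19.0% higher and 19.0% lower. The calls of members were not stable: leaving out 1 library kept at most 1 of them. Calls over all rows fell too, from 517 with all libraries to between 32 and 178. The values below are as deposited unless the scaling is named, and values under the other scaling are in parts per 1000000 of the protein-coding FPKM of a library (ppm).

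**Figure D3:**
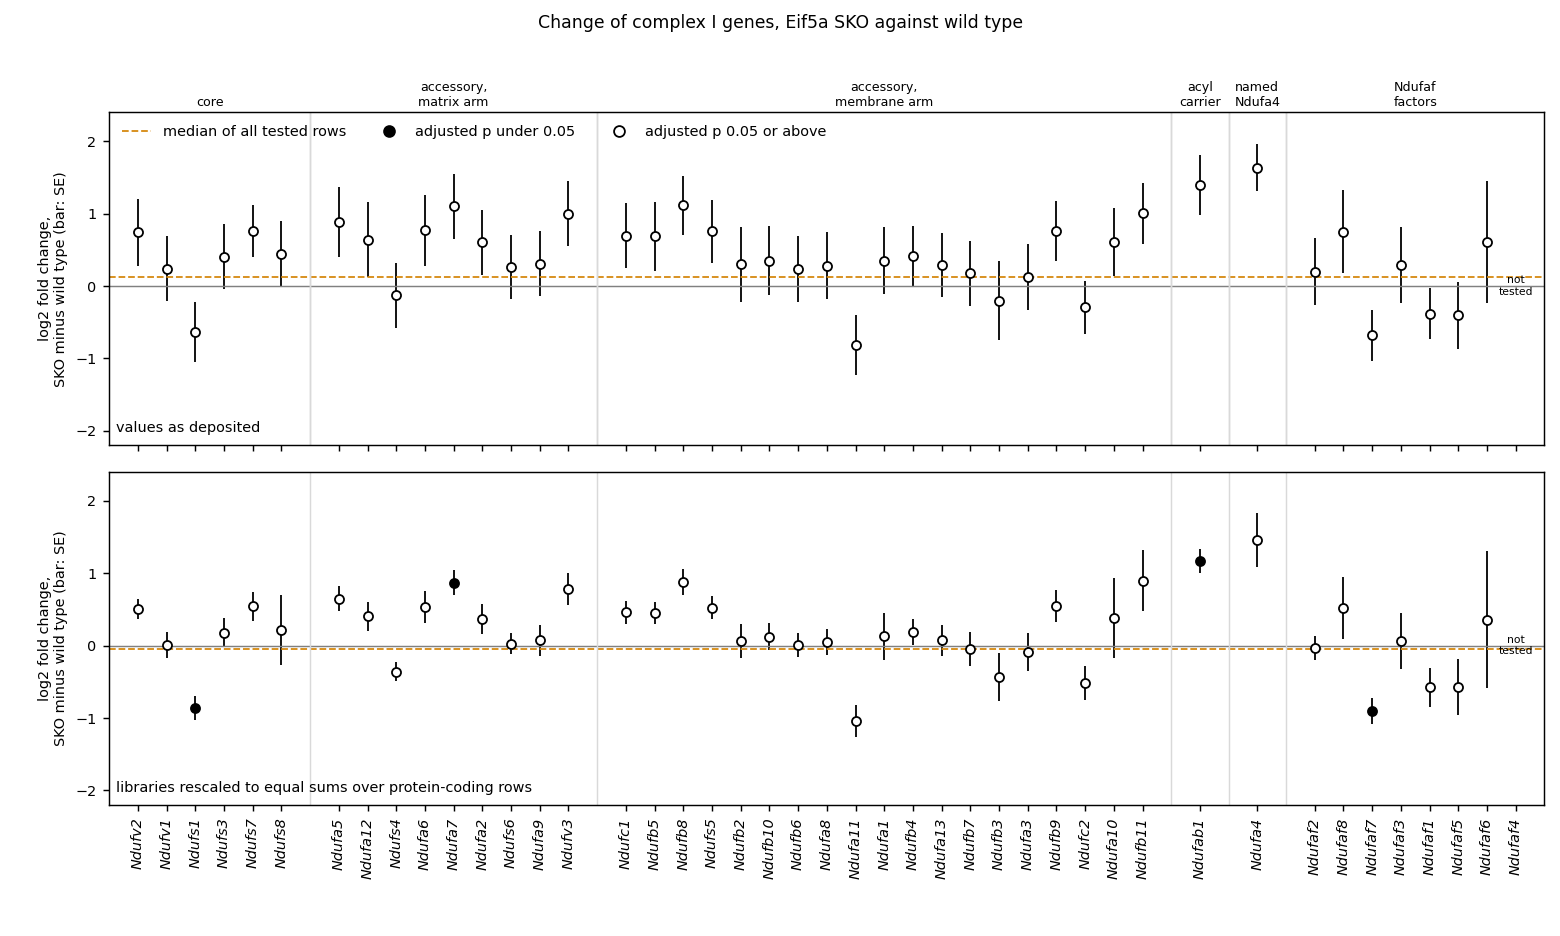
Log2 fold change of 44 of the 45 complex I genes, SKO minus wild type on the log2(FPKM + 1) scale, with bars of 1 standard error and a dashed line at the median of all tested rows. Ndufaf4 is marked as not tested. The upper panel uses values as deposited, where no plotted gene passes the test, and the lower panel rescales libraries to equal protein-coding sums, where the 4 filled points pass.

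Among the core subunits, values lay in both directions and none passed the test as deposited. Ndufs1 (chr1:63143592-63176822), which holds iron-sulfur clusters of the NADH-oxidising module, had 15.0, 30.7 and 24.1 FPKM in SKO libraries, against 26.4, 40.6 and 40.7 FPKM in wild type. The lowest wild-type value lay inside the SKO range. The means were 23.2 ± 7.89 FPKM in SKO and 35.9 ± 8.20 FPKM in wild type (SD, n = 3 each), a log2 fold change of -0.63 ± 0.41 (SE; limma, adjusted p = 0.613). On the protein-coding scale, Ndufs1 was 107, 115 and 117 ppm in SKO against 204, 246 and 185 ppm in wild type, with no overlap, and it was called lower at -0.87 ± 0.16 (SE; adjusted p = 0.0412). No fit of that scaling with 1 library left out called it, with adjusted p between 0.0891 and 0.144.

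Ndufs7, an iron-sulfur subunit next to the ubiquinone site, was higher in SKO by value. It had 10.3, 17.3 and 16.1 FPKM in SKO against 7.21, 8.05 and 8.79 FPKM in wild type. Its groups did not overlap, and the log2 fold change was 0.76 ± 0.35 (SE; limma, adjusted p = 0.473).

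Ndufv1, Ndufv2, Ndufs3 and Ndufs8 overlapped between the groups as deposited. Ndufv1, which binds NADH and the flavin, had 24.8, 49.0 and 46.1 FPKM in SKO against 22.7, 29.6 and 50.1 FPKM in wild type. Ndufv2, its iron-sulfur partner and the densest core subunit, had 126, 271 and 236 FPKM in SKO against 88.6, 120 and 160 FPKM in wild type. Ndufs3 of the ubiquinone module averaged 29.3 ± 14.9 FPKM in SKO and 20.7 ± 5.51 FPKM in wild type (SD, n = 3 each). Ndufs8, an iron-sulfur subunit and the least dense of the core, averaged 6.17 ± 3.99 FPKM in SKO and 3.98 ± 1.66 FPKM in wild type (SD, n = 3 each). Their log2 fold changes as deposited lay between 0.24 for Ndufv1 and 0.74 for Ndufv2. On the protein-coding scale Ndufv2 alone of these genes did not overlap. It was 897, 1016 and 1148.5 ppm in SKO against 686, 727 and 728 ppm in wild type (limma, adjusted p = 0.121).

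In the matrix arm, accessory subunits were mostly higher in SKO by value. Ndufa7 (chr17:33824572-33838316) had 114, 189 and 182 FPKM in SKO, against 46.9, 81.4 and 101 FPKM in wild type. All SKO values exceeded all wild-type values, with means of 161 ± 41.5 FPKM in SKO and 76.4 ± 27.3 FPKM in wild type (SD, n = 3 each). The log2 fold change was 1.10 ± 0.45 as deposited (SE; limma, adjusted p = 0.411) and 0.87 ± 0.17 under equal protein-coding sums, where it was called (adjusted p = 0.0438). It was called in none of the 6 fits of that scaling with 1 library left out. Ndufv3, which sits beside the flavin subunit, had 11.3, 24.7 and 23.6 FPKM in SKO against 5.62, 8.91 and 13.9 FPKM in wild type, overlapping in SKO replicate 1.

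The dense matrix-arm subunits overlapped between groups as deposited. Ndufa5 had 238, 490 and 413 FPKM in SKO against 127, 231 and 261 FPKM in wild type. Ndufa12, the paralogue that takes the place of Ndufaf2 late in assembly, had 179, 429 and 312 FPKM in SKO against 109, 203 and 283 FPKM in wild type. SKO replicate 1 was the lowest SKO library for both and lay inside the wild-type range. Ndufs4, needed for a stable NADH-oxidising module, was the only one of the 9 with a negative log2 fold change, at -0.13 ± 0.45 (SE; limma, adjusted p = 0.954), with 182 ± 56.4 FPKM in SKO and 198 ± 61.6 FPKM in wild type (SD, n = 3 each). On the protein-coding scale Ndufa12 overlapped, and Ndufa5 and Ndufs4 did not. There Ndufa5 was 1696, 1837 and 2015 ppm in SKO against 980, 1398 and 1185 ppm in wild type (limma, adjusted p = 0.106). Ndufs4 was 845, 849 and 977 ppm in SKO against 1087, 1147 and 1193 ppm in wild type (limma, adjusted p = 0.225).

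Ndufab1 (chr7:122086815-122101848), the mitochondrial acyl carrier protein that sits in both arms and also serves fatty acid synthesis, had the largest log2 fold change of the structural subunits other than Ndufa4. It had 33.3, 71.1 and 61.0 FPKM in SKO, against 16.9, 17.5 and 24.2 FPKM in wild type, and the groups did not overlap. The means were 55.1 ± 19.6 FPKM in SKO and 19.5 ± 4.05 FPKM in wild type (SD, n = 3 each), with a log2 fold change of 1.40 ± 0.41 (SE; limma, adjusted p = 0.275). On the protein-coding scale, Ndufab1 was 237, 267 and 297 ppm in SKO against 131, 106 and 109.8 ppm in wild type, and it was called at 1.17 ± 0.16 (SE; adjusted p = 0.0185). It was called in 2 of the 6 fits of that scaling with 1 library left out, with adjusted p up to 0.0816. A pseudogene row, Ndufab1-ps, showed 22.8, 42.1 and 40.7 FPKM in SKO against 11.4, 11.7 and 20.8 FPKM in wild type. The treatment of reads that fit both rows is not stated, so the level of Ndufab1 is uncertain.

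In the membrane arm, Ndufb8 and Ndufa11 stood at opposite ends. Ndufb8 had 106, 211 and 162 FPKM in SKO against 67.6, 71.0 and 73.1 FPKM in wild type, with no overlap. Its log2 fold change was 1.11 ± 0.41 as deposited (SE; limma, adjusted p = 0.356) and 0.88 under equal protein-coding sums (adjusted p = 0.0541). Ndufa11 (chr17:56717762-56724248), which lies where complex I meets complex III in the supercomplex, had 12.9, 20.6 and 22.9 FPKM in SKO against 22.4, 41.9 and 38.3 FPKM in wild type. Only SKO replicate 3 reached the lowest wild-type value. The log2 fold change of Ndufa11 was -0.82 ± 0.41 as deposited (SE; limma, adjusted p = 0.505) and -1.04 under equal protein-coding sums (adjusted p = 0.0546), the lowest of the 44 tested members under both.

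Ndufc1, the densest member, had 488, 1035 and 709 FPKM in SKO against 389, 411 and 525 FPKM in wild type, which overlap. Its groups did not overlap on the protein-coding scale (limma, adjusted p = 0.193). There it was 3482, 3879 and 3454 ppm in SKO against 3012, 2491 and 2381 ppm in wild type. It held 20.7 ± 1.66% of subunit FPKM in SKO and 19.2 ± 3.29% in wild type (SD, n = 3 each). The X-linked Ndufb11 was the least dense subunit, with 2.82, 3.82 and 1.99 FPKM in SKO against 0.976, 0.168 and 1.96 FPKM in wild type. These values did not overlap but came within a small margin, and both groups were near the pseudocount. The X-linked Ndufa1, an anchor of the arm junction, averaged 21.6 ± 7.44 FPKM in SKO and 17.5 ± 9.14 FPKM in wild type (SD, n = 3 each).

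The other low ends of the membrane arm were Ndufc2 and Ndufb3, with log2 fold changes of -0.30 and -0.20. Ndufc2 averaged 11.8 ± 3.99 FPKM in SKO and 14.2 ± 1.04 FPKM in wild type, and Ndufb3 averaged 14.0 ± 9.94 FPKM in SKO and 14.1 ± 5.10 FPKM in wild type (SD, n = 3 each). Ndufa3 was near the median of all rows, at 0.12. The remaining 11 of the 19 membrane-arm subunits had log2 fold changes between 0.17 for Ndufb7 and 0.76 for Ndufb9, and each overlapped between the groups.

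Ndufa4 (chr6:11900372-11907450) had the largest log2 fold change of the 44 tested members. It carries a complex I name but is now regarded as a subunit of complex IV, cytochrome c oxidase. It had 11.9, 9.50 and 7.41 FPKM in SKO, against 2.21, 2.29 and 2.59 FPKM in wild type. Every SKO value was above every wild-type value, with means of 9.61 ± 2.25 FPKM in SKO and 2.36 ± 0.199 FPKM in wild type (SD, n = 3 each), a ratio of 4.07. The log2 fold change was 1.64 ± 0.33 (SE; limma, adjusted p = 0.126), and 1.48 to 1.79 with any 1 library left out. It did not pass under equal protein-coding sums (1.46, adjusted p = 0.0910). Leydig and Sertoli marker sums were higher in the same 3 libraries, and their part in the level of Ndufa4 was not tested.

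Its paralogue Ndufa4l2, a hypoxia-induced gene whose symbol lies outside the naming rule and which was chosen after its values were seen, was lower in SKO by value. It had 2.15, 4.08 and 4.97 FPKM in SKO against 7.05, 10.7 and 16.2 FPKM in wild type, with no overlap. Its log2 fold change was -1.36 ± 0.42 (SE; limma, adjusted p = 0.286). The ratio of Ndufa4 to Ndufa4l2 was 5.54, 2.33 and 1.49 in SKO against 0.313, 0.213 and 0.159 in wild type. The sum of the pair was 13.3 ± 0.860 FPKM in SKO and 13.7 ± 4.82 FPKM in wild type (SD, n = 3 each).

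**Figure D4:**
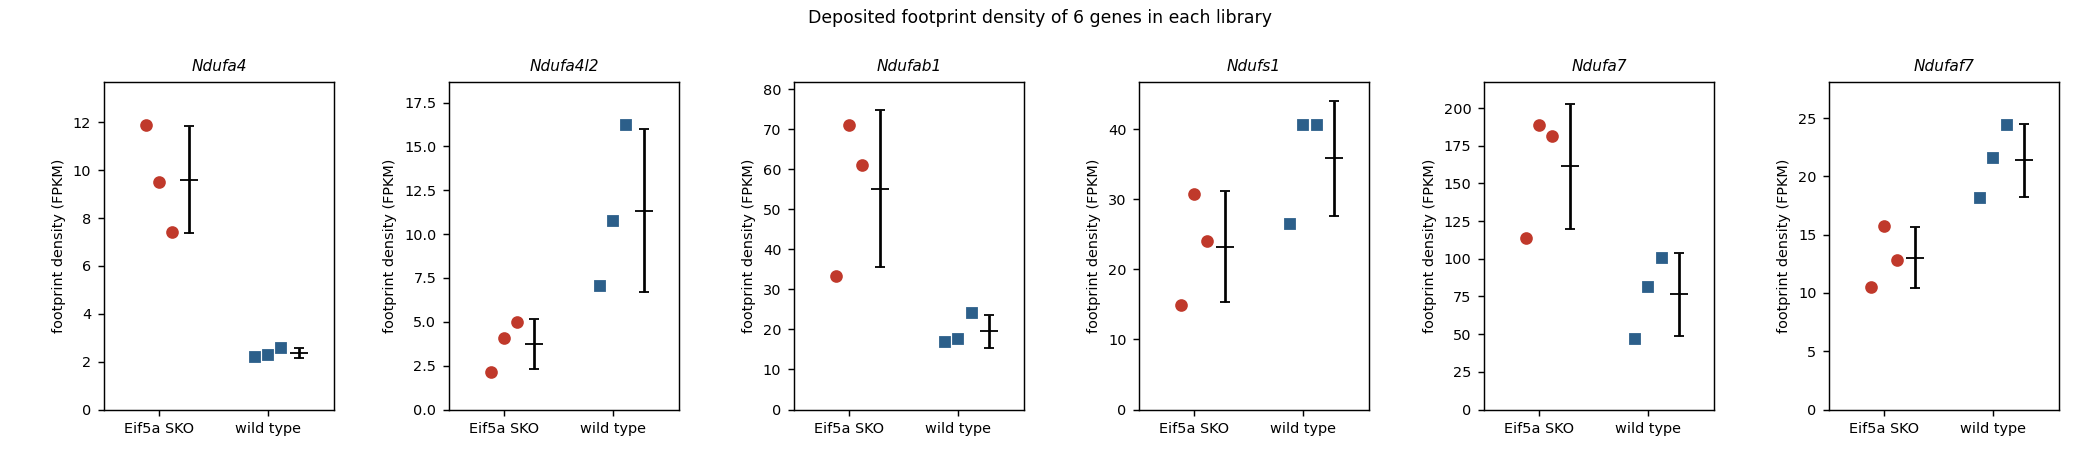
Footprint density in FPKM of 6 genes in each library, Eif5a SKO as circles left of wild type as squares, with mean and SD of 3 libraries. Ndufa4, Ndufab1 and Ndufa7 lie higher in every SKO library, Ndufa4l2 and Ndufaf7 lie lower in every SKO library, and Ndufs1 overlaps.

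No Ndufaf factor passed the test as deposited, and their directions differed. Ndufaf7 (chr17:78937106-78948052), a methyltransferase that acts early in assembly, had 10.5, 15.7 and 12.9 FPKM in SKO against 18.1, 21.5 and 24.4 FPKM in wild type. It was the only member whose SKO values all lay below the wild-type values. The means were 13.0 ± 2.60 FPKM in SKO and 21.4 ± 3.16 FPKM in wild type (SD, n = 3 each), with a log2 fold change of -0.68 ± 0.35 (SE; limma, adjusted p = 0.523). Under equal protein-coding sums it was called at -0.90 ± 0.18 (SE; adjusted p = 0.0493), and in none of the 6 fits with 1 library left out.

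Ndufaf2, the Ndufa12 paralogue that binds a late intermediate, was the second densest member. It had 355, 616 and 468 FPKM in SKO against 310, 346 and 628 FPKM in wild type, and the groups overlapped. It held 89.5 ± 2.65% of the Ndufaf FPKM in SKO and 88.0 ± 3.41% in wild type (SD, n = 3 each), so the summed level of the assembly factors is almost that of 1 gene. Under equal protein-coding sums the log2 fold change of Ndufaf2 was -0.03 ± 0.16 (SE; limma, adjusted p = 0.953).

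The sparser factors were measured less well. Ndufaf1, which acts on the membrane arm with Ecsit and Acad9, had 4.93, 5.69 and 5.09 FPKM in SKO against 6.13, 5.66 and 10.2 FPKM in wild type. Ndufaf5, which hydroxylates an arginine of Ndufs7, averaged 3.00 ± 0.765 FPKM in SKO and 4.80 ± 2.78 FPKM in wild type, and its stabilising partner Ndufaf8 averaged 26.1 ± 17.8 FPKM in SKO and 13.2 ± 5.91 FPKM in wild type (SD, n = 3 each). Their log2 fold changes were -0.40 for Ndufaf5 and 0.75 for Ndufaf8, and both overlapped. Ndufaf3, which acts early on the ubiquinone module, averaged 8.18 ± 5.83 FPKM in SKO and 5.60 ± 1.98 FPKM in wild type (SD, n = 3 each). Its partner Ndufaf4, below the filter, had 0.766, 2.42 and 0.367 FPKM in SKO against 0.487, 0.277 and 0.885 FPKM in wild type. Ndufaf6, another early factor, had 0.694, 7.78 and 0.355 FPKM in SKO and was listed at 4.71, 0 and 0 FPKM in wild type, so 1 library held most of the FPKM of each group.

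Assembly factors with other names gave no member past the test. Of 9 tested genes 3 lay above the median of all rows, and the median log2 fold change was -0.03. The densest were Dmac2, a factor of the distal membrane arm, at 23.4 ± 2.96 FPKM in SKO and 12.5 ± 6.26 FPKM in wild type, and Lyrm2 at 11.6 ± 4.28 FPKM in SKO and 12.9 ± 1.04 FPKM in wild type (SD, n = 3 each). Only Dmac2 and Nubpl, an iron-sulfur cluster factor chosen after its values were seen, did not overlap as deposited, both higher in SKO. They are 22.2% of the 9 genes, against 10.9% of all tested rows. Under equal protein-coding sums 1 of the 9 was higher and 2 were lower without overlap, against 11.3% and 11.8% of all tested rows. Nubpl averaged 15.5 ± 0.930 FPKM in SKO and 6.47 ± 3.74 FPKM in wild type (SD, n = 3 each; limma, adjusted p = 0.336).

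Other respiratory complexes also gave no gene past the test as deposited. The median log2 fold change over 42 tested subunits of complexes II to V was 0.34, with 26 above the median of all rows. Complex II, which also feeds ubiquinone, was the one with 0 of 4 positive values, at a median of -0.31. Its densest subunits were the flavoprotein Sdha, at 80.7 ± 55.2 FPKM in SKO and 94.4 ± 12.4 FPKM in wild type, and Sdhc, at 40.2 ± 7.23 FPKM in SKO and 47.5 ± 19.6 FPKM in wild type (SD, n = 3 each). The densest of complex III were Uqcrc1, at 273 ± 106 FPKM in SKO and 194 ± 34.1 FPKM in wild type, and Uqcrq, at 311 ± 135 FPKM in SKO and 136 ± 46.7 FPKM in wild type (SD, n = 3 each). Those of complex IV were Cox8c, at 721 ± 241 FPKM in SKO and 536 ± 227 FPKM in wild type, and Cox6b2, at 476 ± 199.6 FPKM in SKO and 488 ± 146 FPKM in wild type (SD, n = 3 each). Those of complex V were Atp5b, at 664 ± 330.0 FPKM in SKO and 249.9 ± 38.4 FPKM in wild type, and Atp5j, at 162 ± 58.9 FPKM in SKO and 151 ± 41.5 FPKM in wild type (SD, n = 3 each). Of these 6 genes Atp5b alone did not overlap between the groups. Complex III had a median of 0.42, complex IV of 0.41 and complex V of 0.48, near the 0.41 of the complex I subunits, and no difference between the complexes was tested.

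Promoter letters of the members were read from RefSeq (build GRCm38.p6), in the 250 bases before the listed start nearest to the annotated gene start. A promoter was listed for 40 of the 45 members and for 17492 protein-coding genes. The motif of NRF1, a regulator of respiratory genes, was searched as GCATGCGC on both strands and was found in 4 of 40 members (10%) and in 2.98% of all promoters. The ETS family motif, searched as CCGGAA on both strands, was found in 10 of 40 members (25%) and in 15.2% of all, and the YY1 motif AAGATGGC in 0 members and in 1.50% of all. The members with the NRF1 letters were Ndufa6, Ndufa8, Ndufa11 and Ndufaf4. Their log2 fold changes as deposited were 0.77 for Ndufa6, 0.28 for Ndufa8 and -0.82 for Ndufa11, and Ndufaf4 was not tested. A match describes letters only. The windows of 3 members, chosen after their values were seen, are printed here. That of Ndufa11 holds the NRF1 letters. Those of the NADH-binding core subunit (Ndufv1) and of its neighbour in the complex (Ndufv3) hold the ETS letters. The 3 windows are chr17:56717512-56717761 on the plus strand, chr19:4012756-4013005 on the minus strand and chr17:31519865-31520114 on the plus strand, with the match in capitals. In Ndufa11 the NRF1 letters match on both strands with an overlap, and in Ndufv1 the ETS letters lie on the other strand.
Ndufa11: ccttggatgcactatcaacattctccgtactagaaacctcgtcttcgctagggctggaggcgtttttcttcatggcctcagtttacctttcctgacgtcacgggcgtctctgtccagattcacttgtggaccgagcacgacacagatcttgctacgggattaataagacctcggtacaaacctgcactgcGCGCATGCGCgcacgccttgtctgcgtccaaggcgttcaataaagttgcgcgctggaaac
Ndufv1: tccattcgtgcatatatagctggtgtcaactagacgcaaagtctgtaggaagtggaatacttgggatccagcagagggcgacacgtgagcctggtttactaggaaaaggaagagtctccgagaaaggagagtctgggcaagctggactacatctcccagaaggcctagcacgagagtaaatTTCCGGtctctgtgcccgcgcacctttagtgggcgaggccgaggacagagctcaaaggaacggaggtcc
Ndufv3: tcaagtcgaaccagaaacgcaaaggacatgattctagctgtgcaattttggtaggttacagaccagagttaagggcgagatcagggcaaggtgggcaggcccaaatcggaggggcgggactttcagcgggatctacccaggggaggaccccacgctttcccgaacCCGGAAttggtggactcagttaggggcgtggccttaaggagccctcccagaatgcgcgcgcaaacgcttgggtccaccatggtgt

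Of 4 tested regulators of mitochondrial genes none passed the test. Nrf1 itself averaged 3.24 ± 1.05 FPKM in SKO and 2.49 ± 0.351 FPKM in wild type, and Gabpa, an ETS factor, 6.69 ± 4.38 FPKM in SKO and 8.30 ± 2.97 FPKM in wild type (SD, n = 3 each). Tfam, which binds mitochondrial DNA and not these promoters, averaged 10.8 ± 5.08 FPKM in SKO and 6.32 ± 3.96 FPKM in wild type (SD, n = 3 each). All 3 overlapped between the groups.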

How the data were processed

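Ribosome footprints of round spermatids from 3 Eif5a SKO and 3 wild-type samples were compared. The deposited values are FPKM computed by the authors, 1 per gene symbol and library, without counts. Per the submitters' processing notes, reads were handled with STAR, Bowtie2, Cufflinks and cutadapt on mm10, in an order that is not stated. How ribosomal RNA and multi-mapping reads were handled, and which annotation was used, is not given in the sources used here. As FPKM is a relative unit, abundant rows move all others of a library. Depth in reads is unknown, so no interval for counting error is given.

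Columns were matched to samples by genotype and replicate number, with cKO columns taken as SKO. Symbols were matched to RefSeq (GRCm38.p6), 19305 rows by their symbol, 81 by a synonym and 3384 not at all. From the deposited FPKM, log2(FPKM + 1) was computed for the 15578 rows averaging 1 FPKM or more, and limma 3.58.1 (R 4.3.3) was fitted with lmFit and a trended eBayes. Tests were two-sided at 0.05, adjusted by Benjamini-Hochberg across the 15578 rows. Such log2 fold changes understate changes of low genes. Nothing states that each footprint library is a separate animal, so p-values measure the spread between these 6 libraries. The fit was also run on simulated data, in which noise was independent for each row and library. As no spread was shared within a simulated library, that run cannot show how the fit behaves on the shared spread seen here. Alternatives were other pseudocounts, filters, scalings, eBayes settings, a block for replicate number and leaving out each library.

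The members and gene lists were chosen with earlier results of these data known, and Ndufa9 was moved to the matrix-arm list after its values were seen. The promoter window was set to the start nearest the annotated gene start, in place of the first one listed, after first results were seen. Named were all Ndufaf factors and nuclear core subunits (1 of these is not reported here but is kept in the counts), other members past the threshold, the 5 largest and 5 smallest fold changes and the 3 highest levels, and in other lists the genes past the threshold or else the 2 densest. Further genes (Ndufv3, Ndufa1, Ndufab1-ps, Ndufa4l2, Nubpl, Nrf1, Tsx, Defb36, Tssk6 and Hbb-bs) were named after their values were seen. Copies outside the naming rule, such as Ndufa12-ps and Ndufs6b, could share reads with 6 of the subunits. A planned description of proline runs in the proteins was not run, and protein sequences were not used here. Same-numbered SKO and wild-type libraries deviated from their group means with correlations of 0.0926, 0.000158 and 0.0243, so the numbers were not taken as pairs.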

Additional observations from a re-analysis of the deposited data

How the results depend on the processing

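The count of complex I members past the test was 0 as deposited and 0 with any 1 library left out, against 3 with quantile normalization and 4 with equal sums over protein-coding rows. Those 3 were Ndufab1, Ndufs1 and Ndufaf7. With equal protein-coding sums and 1 library left out, a setting chosen after seeing the data, the count lay between 0 and 1. Over all rows these fits gave 32 to 178 calls. The member count was 1 without SKO replicate 1 and 1 without wild-type replicate 1, both times Ndufab1. Of the 44 tested members, 18 were higher in SKO and 7 lower under every alternative that tested them, and 19 had both signs. There were 34 such alternatives, or 33 for Ndufb11, Ndufaf5 and Ndufaf6. Among them, the eBayes settings, the replicate blocks and the settings that only drop genes from the subunit list cannot change a log2 fold change. Their signs were fixed in advance and add nothing to the agreement. The subunit median was positive in all 29 alternatives, from 0.11 to 0.72, and above the median of all rows in all 29. The Ndufaf median was positive in 16 of 29, with -0.25 under quantile normalization and -0.03 under equal protein-coding sums. Settings that only drop subunits leave the Ndufaf median at its main value of 0.20 and are counted among the positive ones. The subunit share difference stayed between 0.323 and 0.432 percentage points with 1 library left out.

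Over all rows, 20 passed as deposited, 4 with a pseudocount of 5, 5 without a filter, 86 with a mean of at least 5 FPKM, 53 with TMM-type scaling, 449 with quantile normalization, 517 with equal protein-coding sums and 63 with robust estimation. Leaving out 1 library gave 4 to 31. TMM-type scaling from the tested rows, chosen after seeing the data, gave 125 rows and 0 members. The cause of these differences was not tested. With the replicate number as a block, 0 members and 5 rows passed, and with equal protein-coding sums and the replicate block 0 members and 6 rows. The numbers share only labels, so a call lost under the block is no weaker effect. The block leaves medians unchanged in this balanced design, so it gave no separate value for them. Absolute depth is unknown, and low members such as Ndufaf4 and Ndufaf6 rest on few fragments.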
